A study of Homo sapiens with 18 samples.

Results

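Acetate-treated, mitochondria-depleted senescent cells, labelled Sen (IR) + CCCP + acetate, were compared with senescent cells that kept their mitochondria, labelled Sen (IR). The members were 6 of the 18 RNA-seq libraries of the series, 3 in each group, chosen by the treatment that the labels name, and every gene that passed a filter on low counts entered the comparison: 16994 of the 57500 genes in the table. All cells were IMR90, a line of human fetal lung fibroblasts, engineered so that the uncoupler CCCP triggers removal of mitochondria. Both groups were made senescent by irradiation, and the acetate group also received CCCP and acetate. The 3 libraries that received CCCP without acetate, Sen (IR) + CCCP, served as the starting point from which the acetate-treated cells were followed, and 3 proliferating libraries are given beside them where useful. Sen (IR) received neither CCCP nor acetate, and no library of intact senescent cells given acetate was analysed here. CCCP exposure, loss of mitochondria and acetate therefore cannot be told apart in the direct comparison. The labels do not say that replicates came from separate cultures, so p-values measure the spread between these libraries.

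Senescent cells stop dividing for good and secrete cytokines, chemokines, growth factors and matrix proteases, a secretion known as the senescence-associated secretory phenotype (SASP). NF-kB, AP-1 and C/EBP factors drive much of the inflammatory part, while a pathway that senses cytosolic DNA drives interferon-response genes. Mitochondria feed this output by several routes, among them citrate, from which cells make the acetyl-CoA used to acetylate histones, and acetate is a second source of acetyl-CoA through the enzyme ACSS2. Where a gene ended up in acetate-treated cells relative to intact senescent cells therefore shows which parts of the senescent transcriptome were regained, passed or left behind.

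Total counts per library ran from 28434566 to 46224280 in Sen (IR) and from 28417655 to 46045962 with acetate. The mRNAs encoded by mitochondrial DNA made up 1.94%, 1.75% and 2.64% of the counts of the 3 Sen (IR) libraries and 0.123%, 0.134% and 0.138% of those of the acetate-treated libraries, next to 0.122% ± 0.0116 (SD, n = 3) with CCCP alone. The groups did not overlap, and the difference of -1.98 percentage points gave p = 0.1 in a two-sided exact permutation test, the smallest p that 3 against 3 libraries can reach. All 13 of these genes were called lower (100%, against 32.7% of all genes tested), from -3.73 for MT-ATP6 to -4.65 for MT-ND6 on the log2 scale. Acetate moved none of them past the threshold against CCCP alone. MT-CO1, a core subunit of cytochrome c oxidase, stood at 4479.9, 4006 and 6025 CPM (counts scaled to a common library size) in Sen (IR) and at 226, 247 and 252 CPM with acetate. Reads of these genes can also match nuclear copies, and their low remaining level is uncertain for that reason. Of 11 fibroblast markers, 11 were at 1 CPM or more in both groups, with 8 called lower and 1 higher. Their summed level was 20825 to 25826 CPM in Sen (IR) and 5457 to 5734 CPM with acetate, and most of this fall lay in collagens. COL1A1, COL1A2 and COL3A1 were 7229.1, 9841.3 and 2677.3 CPM in Sen (IR) replicate 1 and 775.5, 805.2 and 120.8 CPM in acetate replicate 1. PDGFRB was 115.3 to 131.8 and then 116.3 to 128.3 CPM, and PDGFRA 358.4 to 412.9 and then 404.9 to 477.2 CPM. Summed epithelial markers were 9.61 to 13.5 CPM and then 2.84 to 3.73 CPM, with KRT5 at 0 in both groups and KRT14 and SFTPC at 0 with acetate. Endothelial markers summed to 316.5 to 374.3 and then 168.3 to 191.7 CPM, but this sum was nearly all TEK, at 315.3 to 373.0 and then 167.3 to 190.9 CPM, the 1 of the 5 markers at 1 CPM or more in either group, with CDH5 at 0 with acetate. Leukocyte markers summed to 2.03 to 2.54 and then 2.20 to 2.36 CPM. Muscle markers summed to 1.34 to 1.53 and then 0.419 to 0.657 CPM, and neural markers to 0.845 to 1.27 and then 0.881 to 1.31 CPM. In bulk RNA, fewer cells of a kind and less RNA per cell cannot be told apart.

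The question was what acetate returned, what it pushed past the intact state and what stayed lost. Among the 16994 genes tested, 5646 (33.2%) were called higher and 5552 (32.7%) lower in acetate-treated than in intact senescent cells at an adjusted p under 0.05 in edgeR's quasi-likelihood test. Of these, 1457 (8.57% of genes tested) were higher and 1950 (11.5%) lower by a log2 fold change of 1 or more. The median log2 fold change over all genes tested was 0.002, a centre that the scaling of the libraries sets.

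To place each gene, those that CCCP alone had moved by a log2 fold change of 1 or more were followed. CCCP lowered 1828 genes (10.8% of those tested) and raised 1307 (7.69%). These counts and those of the positions below rest on contrasts that share the Sen (IR) or the CCCP libraries, so they describe where genes stood and are not independent of each other. Of the 1828 lowered genes, 1433 (78.4%) were still below Sen (IR) with acetate. Within these 1433, 544 had risen relative to CCCP alone, 712 were not past the threshold against it, and 177 were lowered further. A further 313 (17.1%) were not past the threshold against Sen (IR), and for 67 of them the 95% interval lay within 0.5 of 0 on the log2 scale. Within these 313, 234 had risen relative to CCCP alone and 79 were not past the threshold against it either. The remaining 82 (4.49%) were above Sen (IR). Of the 1307 raised genes, 864 (66.1%) were still above Sen (IR), with 166 raised further, 395 not past the threshold against CCCP alone and 303 lowered from it. Another 332 (25.4%) were not past the threshold, 47 of them with an interval within 0.5 of 0. Within these 332, 264 had fallen relative to CCCP alone and 68 were not past the threshold against it either. The remaining 111 (8.49%) fell below Sen (IR). Between acetate and CCCP alone, 4902 genes (28.8%) were higher and 4807 (28.3%) lower. Of 5906 genes that CCCP had not moved past the threshold, 1351 were higher and 1313 lower with acetate than in Sen (IR). Both shares were smaller than those over all genes tested, 33.2% higher and 32.7% lower.

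**Figure D1:**
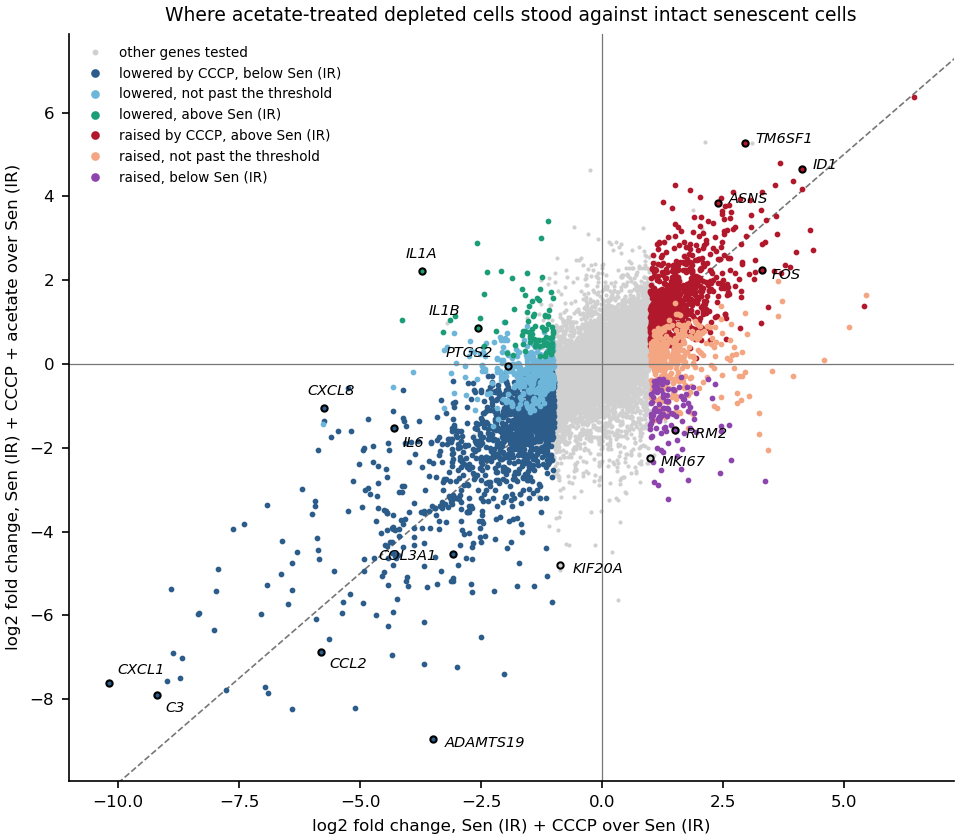
Each point is 1 of the genes tested. The horizontal axis is the log2 fold change of Sen (IR) + CCCP over Sen (IR) and the vertical axis that of Sen (IR) + CCCP + acetate over Sen (IR), colours mark the positions, the solid lines mark no difference from Sen (IR) and the dashed line marks equal values. IL1A and IL1B lie left of 0 and above it, PTGS2 lies near the horizontal line, CXCL1, C3 and CCL2 stay far below it, and ASNS and TM6SF1 lie above the dashed line, while the place of ADAMTS19 rests on 1 or 2 counts per acetate library.

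The promoters of 10 genes are shown because these genes ended at different positions. IL1A and IL1B passed the intact level, CXCL8 and IL6 regained part of it, CXCL1, CXCL10 and OAS1 stayed low, CXCL5 fell further, and ASNS and TRIB3 rose beyond it. Each sequence holds the 250 bases before the RefSeq start on GRCh38.p14, read 5′ to 3′ on the gene's strand. Capitals mark GGANNTTCC (NF-kB), AAANNGAAA (the interferon-stimulated response element, ISRE), TGANTCA (AP-1) or TGATGNAA (the C/EBP-ATF response element), searched on both strands. No listed match overlapped another.
IL1A at chr2:112784494-112784743, minus strand, with 1 AP-1 match: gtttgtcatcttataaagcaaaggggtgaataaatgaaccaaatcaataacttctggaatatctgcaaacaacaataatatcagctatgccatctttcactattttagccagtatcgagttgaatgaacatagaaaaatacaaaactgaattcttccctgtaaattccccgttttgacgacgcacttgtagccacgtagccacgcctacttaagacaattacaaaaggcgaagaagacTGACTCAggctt
IL1B at chr2:112836780-112837029, minus strand, with none of these letters: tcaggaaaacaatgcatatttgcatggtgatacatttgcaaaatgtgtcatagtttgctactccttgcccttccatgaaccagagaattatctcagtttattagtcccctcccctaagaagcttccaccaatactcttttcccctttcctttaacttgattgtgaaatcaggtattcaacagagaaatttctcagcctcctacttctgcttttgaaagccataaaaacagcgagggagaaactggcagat
CXCL8 at chr4:73740319-73740568, plus strand, with 1 AP-1 and 1 NF-kB match: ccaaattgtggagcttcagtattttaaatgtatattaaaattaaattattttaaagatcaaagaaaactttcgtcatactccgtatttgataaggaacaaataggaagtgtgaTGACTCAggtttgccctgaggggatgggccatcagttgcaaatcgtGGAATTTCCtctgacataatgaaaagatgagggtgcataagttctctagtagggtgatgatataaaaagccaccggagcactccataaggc
IL6 at chr7:22726950-22727199, plus strand, with 1 NF-kB match: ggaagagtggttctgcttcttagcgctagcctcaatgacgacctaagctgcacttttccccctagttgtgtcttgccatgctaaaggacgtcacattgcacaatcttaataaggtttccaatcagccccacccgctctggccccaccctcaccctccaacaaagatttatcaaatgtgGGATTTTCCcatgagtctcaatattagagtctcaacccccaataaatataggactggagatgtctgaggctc
CXCL1 at chr4:73869143-73869392, plus strand, with 1 NF-kB match: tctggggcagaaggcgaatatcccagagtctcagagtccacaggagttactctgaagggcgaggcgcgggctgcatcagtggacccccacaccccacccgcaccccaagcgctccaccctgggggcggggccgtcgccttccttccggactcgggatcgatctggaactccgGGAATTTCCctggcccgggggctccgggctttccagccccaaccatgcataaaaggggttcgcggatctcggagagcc
CXCL5 at chr4:73998678-73998927, minus strand, with 1 NF-kB match: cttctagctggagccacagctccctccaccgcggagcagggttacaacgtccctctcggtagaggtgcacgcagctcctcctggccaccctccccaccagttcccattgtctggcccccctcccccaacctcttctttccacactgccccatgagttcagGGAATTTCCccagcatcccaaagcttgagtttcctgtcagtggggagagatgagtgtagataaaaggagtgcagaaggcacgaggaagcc
CXCL10 at chr4:76023498-76023747, minus strand, with 1 ISRE and 1 NF-kB match: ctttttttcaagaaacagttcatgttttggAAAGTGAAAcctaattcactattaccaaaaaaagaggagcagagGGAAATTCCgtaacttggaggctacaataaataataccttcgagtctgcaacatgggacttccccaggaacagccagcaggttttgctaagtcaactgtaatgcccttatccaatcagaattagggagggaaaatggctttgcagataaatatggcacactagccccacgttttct
OAS1 at chr12:112906712-112906961, plus strand, with 1 ISRE match: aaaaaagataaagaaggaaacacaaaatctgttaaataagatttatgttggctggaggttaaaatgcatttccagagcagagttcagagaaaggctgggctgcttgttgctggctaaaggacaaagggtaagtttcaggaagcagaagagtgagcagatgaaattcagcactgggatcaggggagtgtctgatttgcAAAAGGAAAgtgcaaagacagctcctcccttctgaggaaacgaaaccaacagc
ASNS at chr7:97872409-97872658, minus strand, with 1 C/EBP-ATF match: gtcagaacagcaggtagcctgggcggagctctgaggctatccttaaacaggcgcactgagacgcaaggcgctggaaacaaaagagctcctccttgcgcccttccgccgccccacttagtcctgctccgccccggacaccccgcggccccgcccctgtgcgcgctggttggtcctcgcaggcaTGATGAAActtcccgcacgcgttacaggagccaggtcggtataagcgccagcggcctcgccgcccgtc
TRIB3 at chr20:381045-381294, plus strand, with none of these letters: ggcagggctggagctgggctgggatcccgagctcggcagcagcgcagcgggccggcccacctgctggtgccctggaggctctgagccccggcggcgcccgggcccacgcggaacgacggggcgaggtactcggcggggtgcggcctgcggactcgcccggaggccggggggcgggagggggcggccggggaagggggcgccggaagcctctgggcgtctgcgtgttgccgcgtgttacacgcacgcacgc

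The NF-kB letters occurred in 8 of the 14 matched promoters among 17 inflammatory cytokine and neutrophil chemokine genes (57.1%), against 3.88% of all 27305 promoters. The ISRE letters occurred in 21 of the 31 matched promoters of 40 interferon-response genes (67.7%), against 9.28% of all. AP-1 letters were found in 3 of the 14 inflammatory promoters (21.4%), against 6.60% of all, and the C/EBP-ATF letters, searched after the values of these genes were seen, in 4 of 18 promoters of ATF4 target genes (22.2%), against 3.19%. The NF-kB match stood in promoters of genes that regained much, little or none of their level. IL1B and TRIB3 ended above Sen (IR) with no match in these windows. A match is a run of letters and not evidence that a factor binds there, and a window without one says nothing of the factor.

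Of the cytokines, IL1A, the membrane-bound interleukin that starts the SASP cascade, was 7.70, 10.4 and 7.34 CPM in Sen (IR), 0.650 ± 0.202 with CCCP (mean ± SD, n = 3, as for all CCCP values below) and 41.1, 37.8 and 38.8 CPM with acetate. Every acetate library lay above every Sen (IR) library, and the log2 fold change was 2.22 ± 0.11 (± SE, as for all log2 fold changes below; adjusted p = 1.56e-13). Its secreted relative IL1B stood at 30, 31.9 and 30.9 CPM in Sen (IR), 5.29 ± 0.590 with CCCP and 65.8, 49.4 and 52.9 CPM with acetate. The groups again did not overlap, with a smaller difference of 0.86 ± 0.09 (adjusted p = 3.87e-08). IL11, a profibrotic cytokine of the IL-6 family, differed in course, because CCCP had already raised it from 9.98, 10.8 and 10.2 to 45.6 ± 1.74 and acetate brought it to 79.0, 73.6 and 74.8 CPM, a log2 fold change of 2.88 ± 0.07 over Sen (IR).

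These were the 3 of 16 tested members of the inflammatory cytokine and neutrophil chemokine list that were higher than in Sen (IR) (18.8%, against 33.2% of all genes). The other 13 were lower (81.2%, against 32.7%). The filter on low counts lets in members high in Sen (IR) and near 0 with acetate, which favours a call of lower. CSF3, for example, had 19, 24 and 18 counts in Sen (IR) and 1, 2 and 0 with acetate. The list's median log2 fold change was -2.09 with acetate and -4.17 with CCCP alone. CCCP had lowered 14 of the 16 by a log2 fold change of 1 or more. With acetate 12 of these were still below Sen (IR) and 2, IL1A and IL1B, were above it, so no lowered member ended between those calls. Against CCCP alone, 12 of the 16 were higher and 2 lower (28.8% and 28.3% of all genes).

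CXCL8, the main neutrophil attractant, was 626, 703 and 843 CPM in Sen (IR), 13.4 ± 0.895 with CCCP and 417, 319.5 and 309.8 CPM with acetate. It had thus moved up by 4.70 ± 0.13 on the log2 scale from CCCP alone and stood at 48.2% of the intact mean, without overlap (-1.05 ± 0.11, adjusted p = 1.66e-08). IL6, the pleiotropic cytokine measured in most SASP studies, went from 364, 384 and 327 CPM in Sen (IR) through 18.2 ± 0.396 to 145, 116 and 112 CPM, 34.7% of the intact mean (-1.53 ± 0.11, adjusted p = 3.41e-11). CSF1, a macrophage growth factor, ended at 29.2% and LIF at 24.6% of their Sen (IR) means. CCL20, which attracts Th17 and dendritic cells, ended at 9.90%.

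CXCL1, another ligand of the neutrophil receptor CXCR2, was 141, 152 and 127 CPM in Sen (IR) and 0.760, 0.441 and 0.944 CPM with acetate, after 0.106 ± 0.0924 with CCCP. It had risen from CCCP alone by 2.58 ± 0.52, yet its level was 0.510% of the intact one. CXCL3 ended at 8.36%. CXCL5 was lowered further by acetate, from 7.52 ± 0.401 with CCCP to 3.91, 3.57 and 3.00 CPM, against 122, 132 and 121 CPM in Sen (IR). CXCL6 had 0, 4 and 2 counts in the acetate libraries against 311, 136 and 186 in Sen (IR), a ratio of Sen (IR) to acetate of 131.7 with a 95% interval of 60.2 to 360.3 that covers counting error only. The neutrophil chemokines thus ended between 0.510% of the intact mean for CXCL1 and 48.2% for CXCL8.

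**Figure D2:**
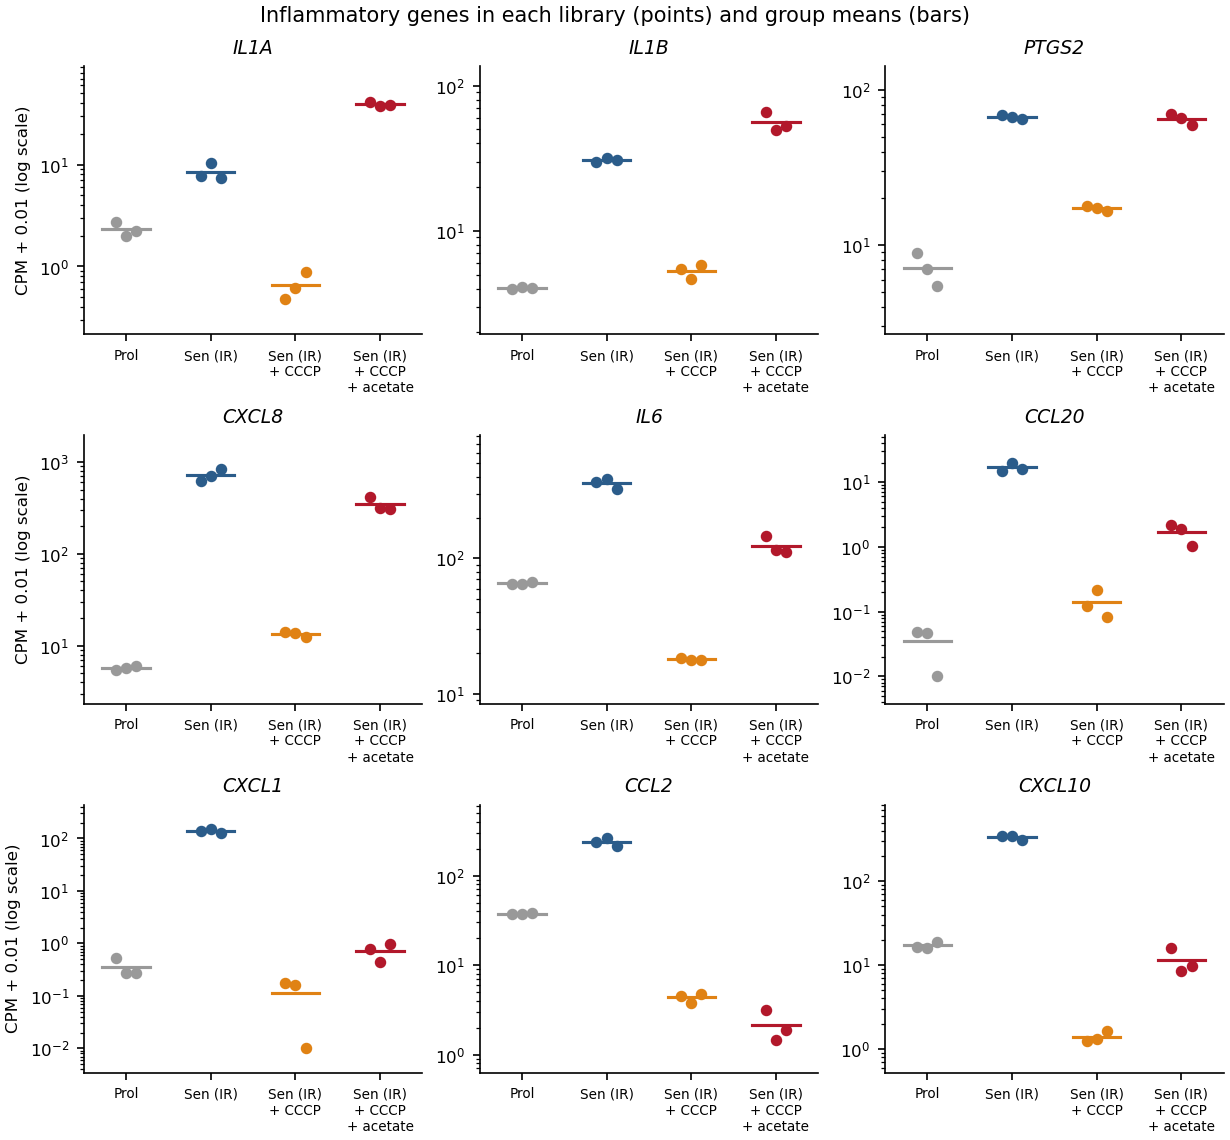
Each panel shows 1 gene, with CPM plus 0.01 on a log axis, a point per library, a bar at the mean of 3 libraries, and, from left to right, proliferating cells (Prol), intact senescent cells, cells with CCCP alone and cells with CCCP and acetate. IL1A and IL1B ended above Sen (IR), PTGS2 overlapping it, CXCL8, IL6 and CCL20 between CCCP and Sen (IR), and CXCL1, CCL2 and CXCL10 far below it.

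All 8 tested members of the 16 monocyte and interferon-inducible chemokines listed were lower than in Sen (IR) with acetate (100%, against 32.7% of all genes). The other members did not pass the filter on low counts. A gene high in a single group can pass that filter, which favours a call of lower for members high in Sen (IR), so the 100% is a description. CCL5, for example, had 19, 16 and 26 counts in Sen (IR) and 2, 2 and 1 with acetate. CCCP alone had lowered 5 of the 8 (31.3% of all genes were called lower there), and the other 3, CCL26, CXCL12 and CXCL16, were not past the threshold with CCCP alone. Against CCCP alone, 4 of the 8 were lower and 2 higher with acetate (28.3% and 28.8% of all genes). The list had a median log2 fold change of -3.89, or -3.46 with CCL3, which had no count in any acetate library, set to the bound that 3 counts per library allow. For CCCP alone the median was -3.92, or -2.45 with CCL5, at 0 there, set to its bound. CCL2, which recruits monocytes, was 239, 266 and 214 CPM in Sen (IR), 4.34 ± 0.542 with CCCP and 3.11, 1.45 and 1.89 CPM with acetate. Relative to CCCP alone, CCL2 was lower with acetate (-1.07 ± 0.28, adjusted p = 0.00253), and it ended at 0.897% of the intact mean. CXCL10, the interferon-inducible ligand of CXCR3, was 341, 343 and 313 CPM in Sen (IR), 1.38 ± 0.219 with CCCP and 16.0, 8.48 and 9.76 CPM with acetate. It rose relative to CCCP alone by 3.03 ± 0.66 and was still 3.43% of Sen (IR). CX3CL1 was too low to be tested in any of the contrasts. CCL3 was at least 8.48-fold lower than in Sen (IR), with the reservation that it shares reads with near-identical copies.

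Of the genes that CCCP lowered, C3, VCAM1 and MIR3142HG were far below Sen (IR) with acetate as well. C3, the central complement component, was 294, 291 and 255 CPM in Sen (IR) and 1.45, 0.881 and 1.24 CPM with acetate (-7.91 ± 0.11, adjusted p = 1.38e-22), after 0.483 ± 0.144 with CCCP. VCAM1, the adhesion molecule that leukocytes bind, went from 316 ± 37.8 through 1.28 ± 0.272 to 7.69 ± 2.80 CPM. MIR3142HG, the transcript that hosts an inflammation-linked microRNA, ended at 2.42% of its intact mean. For C3, VCAM1 and MIR3142HG, every acetate library lay below every Sen (IR) library.

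Interferon-response genes stayed low almost without exception. Of 40 tested members 38 were lower than in Sen (IR) (95%, against 32.7% of all genes) and 1 was higher, with a median of -2.55 next to -2.90 for CCCP alone. CCCP had lowered 35 of them by a log2 fold change of 1 or more, and all 35 were still below Sen (IR). Acetate raised 6 and lowered 2 of the 40 relative to CCCP alone (28.8% and 28.3% of all genes). IFI6, an interferon-induced mitochondrial protein, was 257, 258 and 184 CPM in Sen (IR), 3.00 ± 0.473 with CCCP and 11.3, 9.41 and 10.5 CPM with acetate. Every acetate library lay far below every Sen (IR) library (-4.50 ± 0.33, adjusted p = 7.03e-11). OAS1, which activates RNase L on double-stranded RNA, had 2, 2 and 5 counts in the acetate libraries against 544, 379 and 425 in Sen (IR), a ratio of 187 with a counting interval of 98.2 to 409.9. BST2, which tethers budding viruses, had 0, 3 and 1 counts against 302, 154 and 220. TRIM22 and SAMD9L ended at 35.0% and 32.7% of their intact means. The 1 member above Sen (IR), singled out after its values were seen, was IRF1, an interferon regulatory factor that NF-kB also induces, at 72.4, 74.0 and 59.2 CPM in Sen (IR), 48.3 ± 4.15 with CCCP and 101, 91.2 and 96.3 CPM with acetate (0.49 ± 0.10, adjusted p = 0.000285).

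Antigen presentation followed the same direction with smaller differences. All 15 members of the MHC class I list were lower than in Sen (IR) (100%, against 32.7% of all genes), with a median of -0.84 next to -1.16 for CCCP alone. B2M, the invariant light chain, was 1501 ± 24.2 CPM in Sen (IR) and 601 ± 40.0 CPM with acetate. HLA-B reached 36.5% and HLA-C 44.6% of the intact means, values that are uncertain because these genes share reads. Of the 8 tested members of the cytosolic DNA-sensing list, 3 were higher (37.5%) and 4 lower (50%), against 33.2% and 32.7% of all genes. TMEM173, which encodes the adaptor STING, was 24.2, 25.3 and 20.5 CPM in Sen (IR), 29.6 ± 1.30 with CCCP and 13.9, 12 and 11.6 CPM with acetate. It had risen slightly with CCCP and fell below the intact level with acetate (-0.91 ± 0.09, adjusted p = 1.45e-08). SAMHD1, a nucleotide hydrolase that is itself interferon-induced, ended at 27.2%, and TBK1, the kinase downstream of STING, was 0.29 ± 0.04 above Sen (IR).

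Of 17 NF-kB subunits and feedback inhibitors tested, 6 were higher (35.3%) and 5 lower (29.4%) than in Sen (IR), shares near the 33.2% and 32.7% of all genes. The median was 0.08 next to -0.76 for CCCP alone, and 15 of 17 were higher than with CCCP alone, against 28.8% of all genes. NFKBIA, the inhibitor that NF-kB itself induces, was 69.5, 71.2 and 59.6 CPM in Sen (IR), 21.9 ± 1.49 with CCCP and 58.0, 51.2 and 56.0 CPM with acetate (-0.28 ± 0.07, adjusted p = 0.00106). BIRC3, an apoptosis inhibitor induced by NF-kB, was 55.5, 59.3 and 69 CPM in Sen (IR), 15.6 ± 1.64 with CCCP and 79.9, 73.7 and 65.9 CPM with acetate. It was called higher than in Sen (IR) (0.26 ± 0.08, adjusted p = 0.00535), although the libraries overlapped. NFKBIZ, a nuclear cofactor of NF-kB needed for IL6 induction, ended at 45.5%. RELA, the main activating subunit, was 0.37 ± 0.04 and CYLD, a deubiquitinase that restrains the pathway, 0.70 ± 0.05 relative to Sen (IR).

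Of 16 tested AP-1 and C/EBP factors, 10 were higher (62.5%) and 3 lower (18.8%), against 33.2% and 32.7% of all genes. The 6 that CCCP had raised by a log2 fold change of 1 or more were all still above Sen (IR). FOS was 0.719 ± 0.0607 CPM in Sen (IR), 7.14 ± 0.444 with CCCP and 3.41 ± 0.276 CPM with acetate. CEBPB, the C/EBP factor of the SASP, was 27.5, 33.8 and 23.8 CPM in Sen (IR) and 85.7, 73.2 and 74.5 CPM with acetate, after 45.3 ± 0.883 with CCCP (1.46 ± 0.09, adjusted p = 3.59e-12). CEBPD went the other way, to 20.4% of the intact mean. JUN was not past the threshold, with a 95% interval of -0.20 to 0.05 on the log2 scale, and without Sen (IR) replicate 3 it was called lower (-0.16).

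Among receptors for the IL-1 and IL-6 families, 4 of 8 were higher (50%) and 2 lower (25.0%), against 33.2% and 32.7% of all genes. Only 2 were higher when Sen (IR) replicate 3 or acetate replicate 3 was left out. IL6ST, the signal-transducing chain shared by the IL-6 family, was 1599, 1656 and 1565 CPM in Sen (IR) and 1630.0, 1569.6 and 1602 CPM with acetate. The groups overlapped and the interval of the difference was -0.10 to 0.08. OSMR, the receptor for oncostatin M, likewise gave an interval of -0.08 to 0.13. IL1R1, the signalling receptor of IL1A and IL1B, was 0.50 ± 0.08 and IL1RL1, the receptor for IL33, 1.68 ± 0.14 above Sen (IR), while IL6R was -1.22.

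Other genes that CCCP had lowered were not past the threshold against Sen (IR) with acetate. PTGS2, the inducible cyclooxygenase, was 68.6, 67.0 and 65.2 CPM in Sen (IR), 17.3 ± 0.655 with CCCP and 69.3, 65.9 and 59.7 CPM with acetate. The groups overlapped, and the difference of -0.04 had a 95% interval of -0.23 to 0.14. IER3, an early response gene, was 166, 169.7 and 138 CPM in Sen (IR), 35.3 ± 2.20 with CCCP and 159.8, 132 and 141 CPM with acetate, with an interval of -0.30 to 0.03. ASS1, which makes argininosuccinate, went from 13.0 ± 0.426 through 1.62 ± 0.405 to 13.3 ± 0.991 CPM, with an interval of -0.32 to 0.37. VSIR, an immune checkpoint ligand, gave -0.40 to 0.08 and ICAM5 -0.18 to 0.38. CTGF, a matricellular target of YAP and TGF-beta signalling, was 980.5, 944 and 734 CPM in Sen (IR), 207 ± 9.14 with CCCP and 831, 717 and 814 CPM with acetate, with an interval of -0.36 to 0.02. An interval that spans 0 does not show that levels were equal, and those of VSIR, IER3 and CTGF reach further below 0 than above it. Without Sen (IR) replicate 3, VSIR (-0.33), IER3 (-0.22) and CTGF (-0.29) were called lower.

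Genes that CCCP lowered and acetate carried past the intact level reached beyond the interleukins. PDGFB, a growth factor for mesenchymal cells, was 4.88, 4.57 and 3.00 CPM in Sen (IR), 0.692 ± 0.303 with CCCP and 9.68, 8.06 and 9.19 CPM with acetate (1.09 ± 0.15, adjusted p = 1.12e-06). AKR1B1, aldose reductase, went from 585 ± 40.6 through 188 ± 4.75 to 809.9 ± 53.6 CPM (0.47 ± 0.05, adjusted p = 1.14e-07), with no overlap between the acetate and Sen (IR) libraries. SERPING1, the C1 inhibitor, passed the intact mean as well, at 94.0 ± 4.74 against 68.9 ± 7.01 CPM. The genes C7orf69, PKD1L1 and AL353653.1 showed the same course, with log2 fold changes over Sen (IR) of 2.88, 2.19 and 2.05.

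The largest rise over Sen (IR) among genes with a mean of at least 5 CPM was that of TM6SF1, a transmembrane protein gene, at 16.9 ± 1.41 against 0.439 ± 0.157 CPM (5.28 ± 0.17). ID1, an inhibitor of differentiation factors, was 1.13, 1.61 and 1.72 CPM in Sen (IR), 25.3 ± 6.98 with CCCP and 36.3, 38.7 and 34.7 CPM with acetate. The long non-coding gene AC117402.1 was 1.17, 0.844 and 1.48 CPM in Sen (IR), 0.964 ± 0.221 with CCCP and 29.4, 25.7 and 32.8 CPM with acetate, so its rise appeared with acetate and not with CCCP. GLI1, the transcriptional target of hedgehog signalling, rose by 4.27 ± 0.22, UNC5B, a netrin receptor, by 4.10 ± 0.12, and FAM129A by 3.67 ± 0.06. LINC01164 and NFATC2, strongly raised by CCCP, stood between CCCP and Sen (IR), at 0.934 ± 0.317 and 9.96 ± 0.521 CPM after 15.8 ± 2.75 and 28.9 ± 3.84.

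All 21 tested genes of the ATF4 integrated stress response were higher than in Sen (IR) (100%, against 33.2% of all genes), with a median of 1.89 next to 1.28 for CCCP alone. ATF4 is the transcription factor that cells translate under amino acid or mitochondrial stress, and its targets make and import amino acids. PSAT1, an enzyme of serine synthesis, was 45.1, 41.4 and 34.2 CPM in Sen (IR), 224 ± 10.6 with CCCP and 628, 619 and 620.3 CPM with acetate. The groups did not overlap at any step, and the log2 fold change over Sen (IR) was 3.95 ± 0.07 (adjusted p = 1.66e-20). ASNS, asparagine synthetase, was 21.2, 20.3 and 17.9 CPM in Sen (IR), 105 ± 3.95 with CCCP and 275, 284 and 287 CPM with acetate (3.83 ± 0.06, adjusted p = 7.59e-22). GDF15, a stress-induced secreted factor, was 48.7, 50.5 and 39.2 CPM in Sen (IR), 82.5 ± 4.45 with CCCP and 455, 427 and 427 CPM with acetate, so most of its rise came with acetate. TRIB3 rose by 3.64 ± 0.07, PCK2 by 2.89 ± 0.09, CHAC1, which degrades glutathione, by 2.61 ± 0.08, and the cystine transporter SLC7A11 by 2.57 ± 0.07. Relative to CCCP alone, 17 of the 21 were higher (28.8% of all genes) and 1 was lower, while ATF4 itself, at 604 ± 10.1 CPM with acetate and 609.8 ± 13.1 CPM with CCCP, was not past the threshold between them (adjusted p = 0.868).

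NRF2 targets moved in both directions, with 10 of 20 higher (50%, against 33.2% of all genes) and 5 lower (25.0%, against 32.7%). NQO1, the quinone reductase, was 163, 163 and 149 CPM in Sen (IR), 240.5 ± 10.6 with CCCP and 842, 821 and 865 CPM with acetate (2.41 ± 0.06, adjusted p = 1.68e-18). TXNRD1, thioredoxin reductase, rose by 1.44 ± 0.05, whereas GCLC, the rate-limiting enzyme of glutathione synthesis, was at 50.2% and AKR1C1 at 25.3% of their intact means. Of 8 listed metallothioneins, the metal-binding proteins, the 4 tested were all lower (100%, against 32.7% of all genes), and MT2A stood at 45.3%. The filter on low counts favours such a call for members high in Sen (IR). MT1G, for example, had 19, 10 and 20 counts in Sen (IR) and 0, 4 and 1 with acetate. The metallothionein genes are near-identical, which makes their separate values uncertain.

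All 25 mitosis genes were lower than in Sen (IR) with acetate (100%, against 32.7% of all genes), with a median of -1.73 next to 0.40 for CCCP alone, and all 25 were lower than with CCCP alone (100%, against 28.3% of all genes). With CCCP alone they had moved both ways, with 13 of the 25 higher than in Sen (IR) (34.0% of all genes), 6 of these by a log2 fold change of 1 or more, and 3 lower. MKI67, the proliferation marker, was 13.8, 14.4 and 17.8 CPM in Sen (IR), 30.4 ± 1.81 with CCCP and 2.73, 3.26 and 3.57 CPM with acetate, beside 59.1 ± 0.983 CPM in proliferating cells. The acetate libraries were the lowest of these groups (-2.24 ± 0.14, adjusted p = 5.22e-12). KIF20A, a kinesin of cytokinesis, was 10.6, 12.5 and 11.0 CPM in Sen (IR), had already been lowered to 6.16 ± 0.315 by CCCP and was 0.311, 0.463 and 0.399 CPM with acetate, and CDC20, the anaphase activator, ended at 8.55%. Of 25 replication genes, 22 were lower (88.0%, against 32.7% of all genes) and 2 higher than in Sen (IR). Their median was -0.71 next to 0.89 for CCCP alone, with which 22 had been higher (34.0% of all genes) and none lower. RRM2, the regulated subunit of ribonucleotide reductase, was 79.5, 82.2 and 69.5 CPM in Sen (IR), 219 ± 7.07 with CCCP and 29.3, 25.0 and 23.3 CPM with acetate. It thus went from above to below the intact level without overlap (-1.58 ± 0.11, adjusted p = 5.29e-11). PCNA, the sliding clamp, was one of the 2 that stayed slightly above, at 0.14 ± 0.05.

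Of the 111 genes raised by CCCP that fell below Sen (IR) with acetate, E2F8, a transcriptional repressor of the cell cycle, went from 0.939 ± 0.224 through 5.28 ± 0.764 to 0.345 ± 0.0514 CPM, CLSPN, a replication checkpoint mediator, to 45.6% of the intact mean, MCM10 to 49.8%, and SKA1, which binds kinetochores to microtubules, to 32.2%. Others raised by CCCP were not past the threshold against Sen (IR). EXO1, a DNA repair nuclease, came down from 25.0 ± 1.95 with CCCP to 3.53 ± 0.165 CPM, against 3.73 ± 0.374 CPM in Sen (IR), with an interval of -0.37 to 0.19. BRCA2 gave -0.21 to 0.40, FBXO5 -0.24 to 0.10 and TCF19 -0.25 to 0.13. DLL4, a Notch ligand, and TACR1, the substance P receptor, gave intervals of -0.03 to 0.50 and -0.36 to 0.54. DLL4 was called higher without Sen (IR) replicate 1 (0.42) or acetate replicate 3 (0.33).

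Of 30 CDK inhibitors and p53 targets, 22 were higher (73.3%, against 33.2% of all genes) and 2 lower than in Sen (IR), with a median of 0.50. CDKN1A, which encodes p21, was 982, 1041 and 950.0 CPM in Sen (IR), 1100.2 ± 32.7 with CCCP and 1895, 1774 and 1886 CPM with acetate (0.90 ± 0.05, adjusted p = 6.63e-13). CDKN2B, which encodes p15, was 31.9, 32.1 and 34.1 CPM in Sen (IR) and 145, 136 and 138 CPM with acetate, after 42.8 ± 1.48 with CCCP (2.10 ± 0.05, adjusted p = 2.76e-18). CDKN2A, the p16 locus, was 0.36 ± 0.10 above Sen (IR). TP53I3, a quinone oxidoreductase induced by p53, was an exception at 24.4% of the intact mean. LMNB1, the lamin that senescent cells lose, was 8.90, 9.02 and 7.65 CPM in Sen (IR), 13.3 ± 1.39 with CCCP and 2.94, 2.86 and 2.94 CPM with acetate, against 24.0 ± 1.26 CPM in proliferating cells. Of the 11 lamina and HMGB genes 4 were higher (36.4%) and 3 lower (27.3%), shares near those of all genes, with HMGA1 at 1.35 ± 0.06 and HMGA2 at 1.07 ± 0.10 over Sen (IR).

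**Figure D3:**
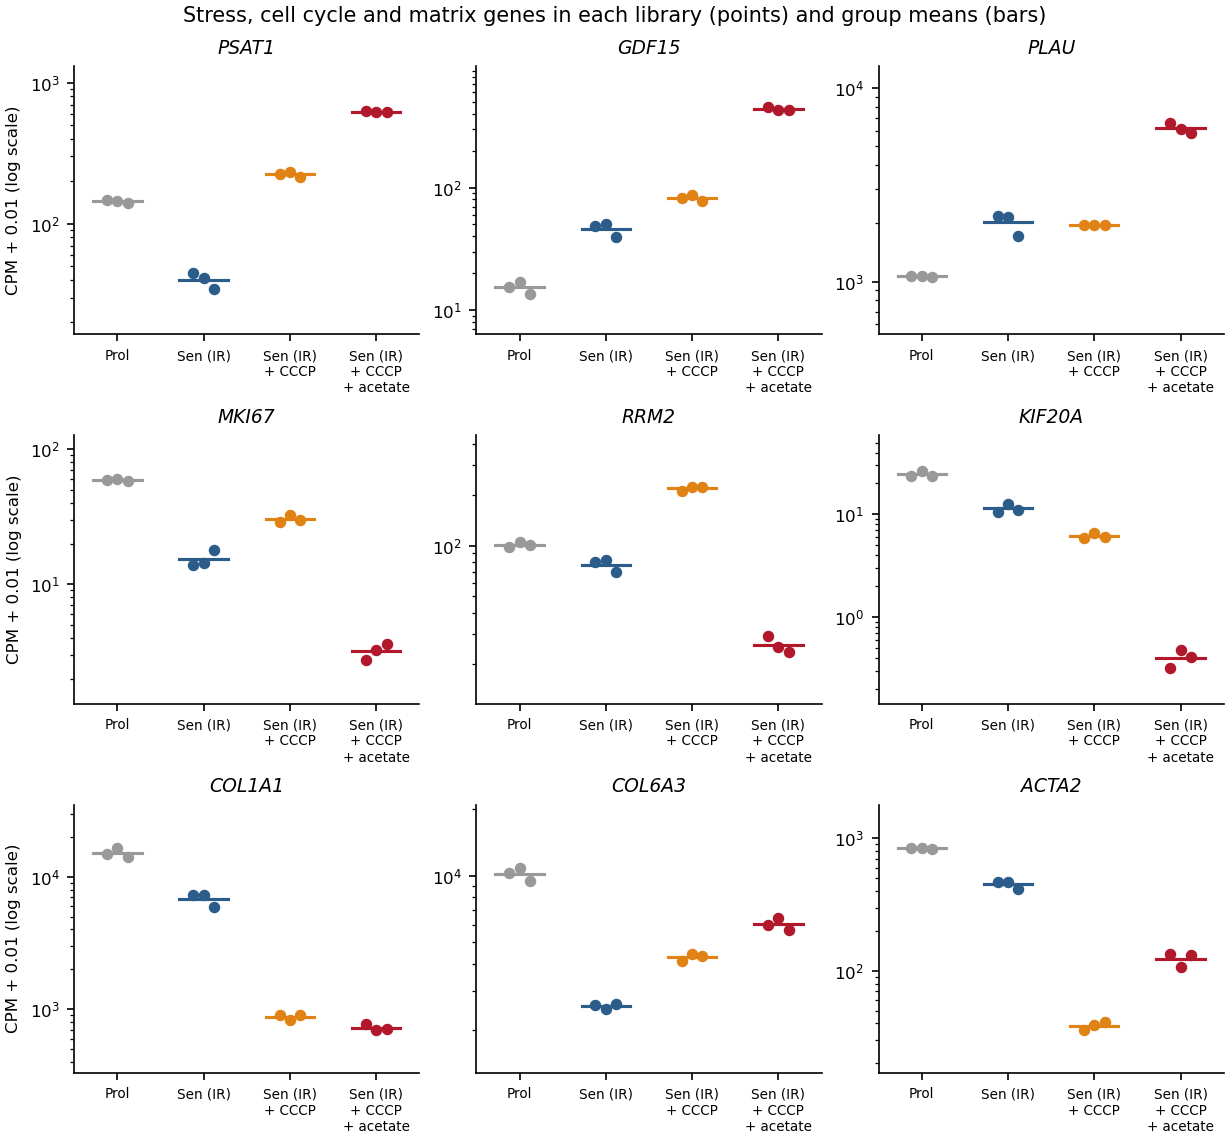
Each panel shows 1 gene, with CPM plus 0.01 on a log axis, a point per library, a bar at the mean of 3 libraries, and the same 4 groups. PSAT1, GDF15 and PLAU were highest with acetate, MKI67, RRM2 and KIF20A lowest with acetate, COL1A1 stayed below Sen (IR), COL6A3 rose above it, and ACTA2 stood between CCCP and Sen (IR).

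Of 22 collagens tested, 16 were lower (72.7%, against 32.7% of all genes) and 2 higher than in Sen (IR), with a median of -0.75 next to -1.32 for CCCP alone. COL1A1, a chain of type I collagen, was 7229, 7304 and 5860.0 CPM in Sen (IR), 878 ± 42.6 with CCCP and 776, 699 and 705 CPM with acetate (-3.23 ± 0.09, adjusted p = 1.86e-17). COL3A1 fell further with acetate, from 289 ± 40.2 to 121, 93.4 and 102 CPM, against 2677, 2524 and 2079 CPM in Sen (IR). The exceptions were COL6A3, which was 2609.8, 2484 and 2618 CPM in Sen (IR), 4285 ± 152 with CCCP and 5991, 6448 and 5671 CPM with acetate, and COL12A1, at 3019 ± 95.7 against 1591 ± 77.6 CPM.

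Contractile genes recovered in part. Of 16 members, 13 were lower (81.2%, against 32.7% of all genes) and 2 higher, with a median of -1.42 next to -2.13 for CCCP alone, and 14 of 16 were higher than with CCCP alone, against 28.8% of all genes. ACTA2, smooth muscle actin, was 467, 466 and 417 CPM in Sen (IR), 38.6 ± 2.74 with CCCP and 133, 106 and 132 CPM with acetate. It thus lay between the other groups without overlap (-1.86 ± 0.15, adjusted p = 2.22e-10). LMOD1, an actin nucleator, ended at 25.8%, TAGLN at 26.1%, MYL9 at 37.3% and ACTG2 at 12.5% of their intact means. The 2 members above Sen (IR), MYLK and CALD1, differed by 0.17 and 0.12. Neither was called without Sen (IR) replicate 1, and CALD1 was not called without Sen (IR) replicate 3, acetate replicate 1 or acetate replicate 3, or with the replicate block (adjusted p = 0.0563), which left 1 member above.

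Matrix proteases and their inhibitors were lower in 16 of 23 members (69.6%, against 32.7% of all genes) and higher in 4. ADAMTS19 was nearly absent with acetate, with 1, 2 and 1 counts per library against 830, 485 and 469 in Sen (IR) and 53, 63 and 48 with CCCP. MMP1, interstitial collagenase, was 0.75 ± 0.07 above Sen (IR) and MMP12 ended at 12.4%. TIMP3, a matrix-bound inhibitor, ended at 28.6%. Plasminogen activators went the other way. PLAU, urokinase, was 2194, 2156 and 1725 CPM in Sen (IR), 1967 ± 4.31 with CCCP and 6587, 6123 and 5893 CPM with acetate (1.61 ± 0.07, adjusted p = 5.35e-15), and PLAT, tissue plasminogen activator, rose by 1.55 ± 0.09. Of the 9 members of this list 5 were higher (55.6%, against 33.2% of all genes) and 1 lower. The lower count was 0 without Sen (IR) replicate 2 and 2 without Sen (IR) replicate 1, acetate replicate 1 or any CCCP library.

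Of 27 growth factors and IGF-binding proteins, 8 were higher (29.6%) and 13 lower (48.1%), against 33.2% and 32.7% of all genes. IGFBP3, an abundant SASP protein, was 6002, 5950.4 and 4487 CPM in Sen (IR), 504 ± 52.7 with CCCP and 478, 431 and 446 CPM with acetate. It stood far below Sen (IR) (-3.60 ± 0.15, adjusted p = 3.72e-15) and was not past the threshold against CCCP alone (adjusted p = 0.328). IGFBP4 ended at 27.5% and HGF, the hepatocyte growth factor, at 44.6%, below its level with CCCP. AREG, an EGF receptor ligand, rose by 2.74 ± 0.10 and BMP2 by 1.83 ± 0.08 over Sen (IR), while BMP4 ended at 22.4%. Among 10 WNT ligands and secreted inhibitors, 7 were lower (70.0%) and 2 higher (20.0%), against 32.7% and 33.2% of all genes. SFRP1, a WNT inhibitor, ended at 19.7% and DKK2 at 15%, DKK1 went from 15.5 ± 1.67 through 56.9 ± 4.67 to 10.5 ± 1.37 CPM, and WNT5A gave an interval of -0.10 to 0.10. Of 11 prostaglandin genes 3 were higher (27.3%) and 5 lower (45.5%), against 33.2% and 32.7% of all genes, with PTGER4, a receptor for prostaglandin E, at 64.1%.

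The genes that handle acetate and acetyl-CoA were mostly below the intact level. Of 14 members, 10 were lower (71.4%, against 32.7% of all genes) and 3 higher, with a median of -0.38 next to -0.24 for CCCP alone. ACSS2, which makes acetyl-CoA from acetate, was 32.0, 31.6 and 28.4 CPM in Sen (IR), 15.1 ± 0.970 with CCCP and 17.1, 17.6 and 16.2 CPM with acetate (-0.86 ± 0.07, adjusted p = 7.54e-10). ACLY, which makes it from citrate, was 438, 454 and 369.8 CPM in Sen (IR), 347 ± 14.1 with CCCP and 262, 256 and 252 CPM with acetate, lower than with CCCP alone. The 3 higher members included ACSS3, a mitochondrial propionyl-CoA synthetase, at 0.92 ± 0.10, and SLC16A1, a monocarboxylate transporter that also carries acetate, at 0.64 ± 0.06. Of 28 histone acetylation genes, 16 were higher (57.1%, against 33.2% of all genes) and 4 lower, or 2 lower without acetate replicate 3. HDAC5, a class II histone deacetylase, was 15.3, 14.9 and 12.9 CPM in Sen (IR), 11.6 ± 1.55 with CCCP and 36.9, 32.3 and 32.1 CPM with acetate. EP300 rose by 0.85 ± 0.08, KAT6A by 1.03 ± 0.06 and HDAC5 by 1.23 ± 0.09, and EP300 was lower than with CCCP alone (-0.62 ± 0.08) while HDAC5 was higher (1.54 ± 0.09).

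Of 24 cholesterol synthesis genes, 20 were lower (83.3%, against 32.7% of all genes) and none higher, with a median of -0.65 next to -0.99 for CCCP alone. INSIG1, which holds the pathway's activator in the endoplasmic reticulum, was 40.0, 36.7 and 39.1 CPM in Sen (IR), 15.3 ± 2.34 with CCCP and 9.68, 8.13 and 9.32 CPM with acetate (-2.10 ± 0.11, adjusted p = 3.78e-13). SQLE and HMGCS1, enzymes of the pathway, ended at 31.2% and 34.2% of their intact means. Of 17 fatty acid genes 12 were lower (70.6%, against 32.7% of all genes) and 2 higher, with SCD at 47.0% and FASN, fatty acid synthase, at 56.7%. Of 25 lysosomal genes 20 were lower (80.0%, against 32.7% of all genes) and 4 higher, with CTSS, a cathepsin of antigen presentation, at 4.14%. The cholesterol exporter NPC1 was 77.3, 84.3 and 70.8 CPM in Sen (IR), 331 ± 20.6 with CCCP and 404, 390.4 and 377 CPM with acetate, and CTSB rose by 0.98 ± 0.07.

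Nuclear genes for mitochondria were called in both directions. Of 74 nuclear respiratory chain subunits, 12 were higher and 37 lower (50%, against 32.7% of all genes), with a median of -0.14, and none had been moved by CCCP by a log2 fold change of 1 or more. The lower count was 24 without Sen (IR) replicate 2. NDUFB7, a subunit of complex I, was at -0.74 and NDUFA1, another, at -0.59. Of 18 tricarboxylic acid cycle genes 12 were lower (66.7%, against 32.7% of all genes) and 1 higher. OGDH, a dehydrogenase of the cycle, stood at 40.1% and IDH2 at 49.4%. The higher count was 3 without Sen (IR) replicate 2 and 2 without acetate replicate 2 or any CCCP library. Of 15 genes of mtDNA maintenance and biogenesis 8 were higher (53.3%) and 4 lower (26.7%), against 33.2% and 32.7% of all genes. The lower count was 1 without Sen (IR) replicate 2 or acetate replicate 1. It was 2 without Sen (IR) replicate 1, acetate replicate 3 or any CCCP library. TFAM, which packages mtDNA, was at 0.18 ± 0.05 and PPARGC1A, a coactivator of biogenesis, at 1.05 ± 0.31. Of 20 mitochondrial chaperone, protease and import genes 5 were higher (25.0%) and 7 lower (35.0%), beside 33.2% and 32.7% of all genes, and LONP1, the matrix protease, was 0.68 ± 0.05. Of 24 glycolytic genes 7 were higher (29.2%) and 12 lower (50%), against 33.2% and 32.7% of all genes. GAPDH stood at 60.2% of its intact mean, the glucose transporter SLC2A3 rose by 1.17 ± 0.06, and PDK4, which switches off pyruvate dehydrogenase, rose by 1.92 ± 0.25. Of 12 osmotic response genes 4 were higher (33.3%, near the share of all genes) and 2 lower (16.7%), with SLC6A9, a glycine transporter, at 2.40 ± 0.11 and AQP1, a water channel, at 14.0%.

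**Figure D4:**
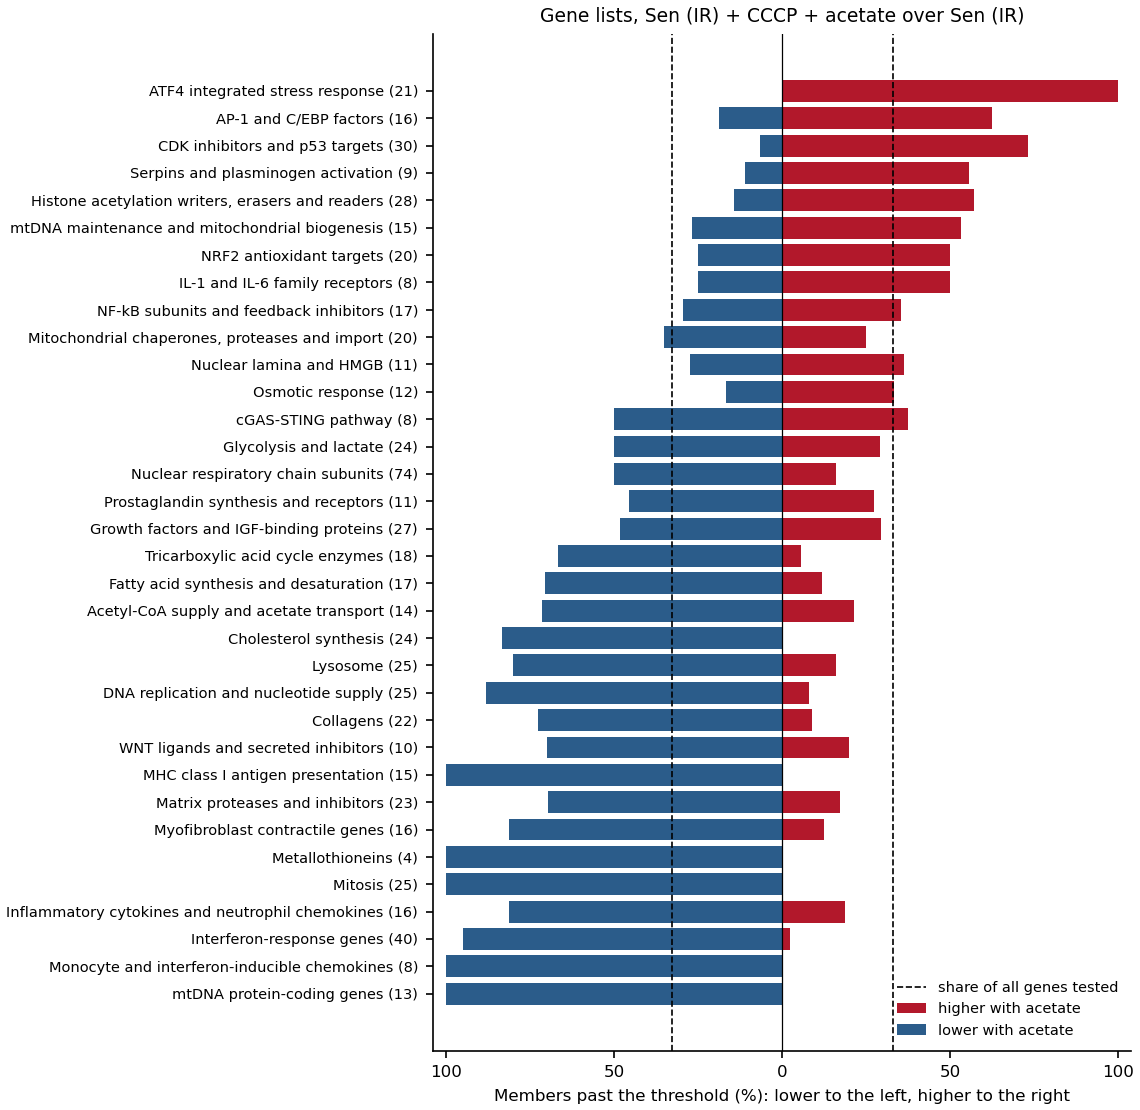
Each row is a gene list with its number of tested members, and bars give the percentage called higher (right) or lower (left) in acetate-treated than in Sen (IR) libraries. Dashed lines mark the shares of all genes tested, 33.2% and 32.7%, and the ATF4 list lies wholly to the right and the mitosis, MHC class I, mtDNA, metallothionein and monocyte chemokine lists wholly to the left.

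**Figure D5:**
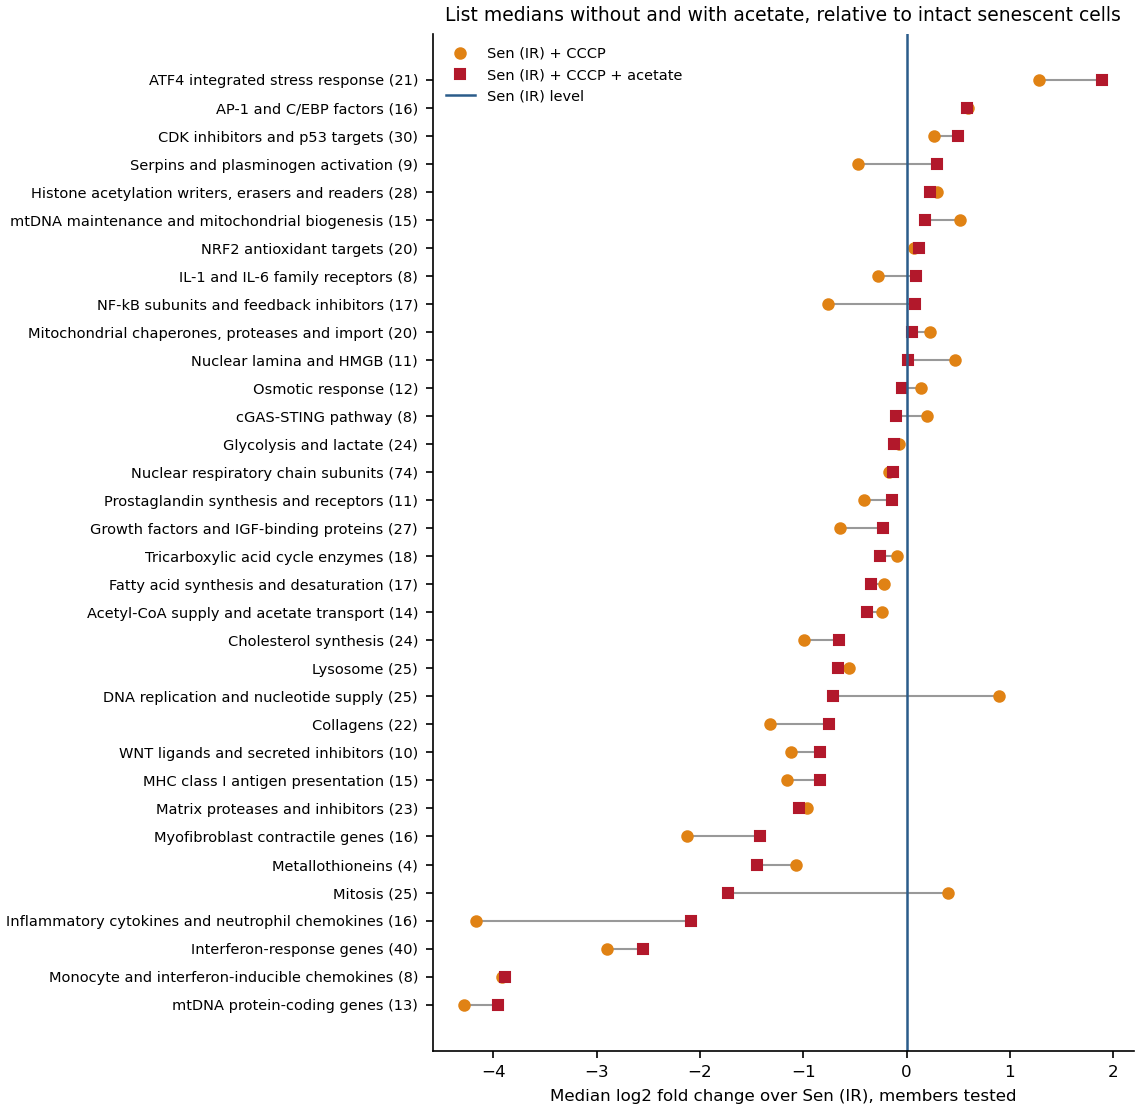
Each row is a gene list, with its median log2 fold change over Sen (IR) for CCCP alone (circle) and for CCCP with acetate (square), and the vertical line at 0 is the intact level. The inflammatory list moved from -4.17 to -2.09, the interferon list from -2.90 to -2.55, the mitosis list from 0.40 to -1.73 and the ATF4 list from 1.28 to 1.89.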

How the data were processed

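The series holds 18 RNA-seq libraries in 6 groups of 3, grouped by their sample titles. Per the labels, poly(A) RNA was used, and the submitters' processing notes name Trimmomatic 0.36, STAR 2.5.2b, featureCounts from Subread 1.5.2 and GRCh38. The deposited table of raw counts per gene was tested, and the deposited TPM (transcript levels that the authors scaled by length and depth) served for one alternative. The strand setting of the counting was not given in the sources used here. Genes were filtered with filterByExpr, counts were scaled by TMM, and 1 model of 6 group means over all 18 libraries was fitted in edgeR 4.0.16 (R 4.3.3) with quasi-likelihood tests and Benjamini-Hochberg adjustment over 16994 genes. The biological coefficient of variation was 0.0644. Tested on simulated data for this comparison, with 16043 genes left unchanged, the fit recovered 86 of 88 genes changed by a log2 fold of 1 and made 12 false calls. The simulation drew every group from the Sen (IR) means and changed genes in the acetate group only, so most genes were unchanged by construction. It therefore does not measure the error of the scaling in data where 33.2% of genes were called higher and 32.7% lower. Total counts ran from 24624886 to 46224280, and intervals on counts cover counting error only. CPM were computed with the TMM factors. Members, gene lists and the naming rule were chosen with earlier results of these data known. The genes named were the 12 largest rises and falls, the 10 largest CCCP effects in each position, the 6 largest changes and the 6 highest members of each list, and a small panel of cytokine and senescence genes, of which a selection is described, and some genes are not reported here. Alternatives covered DESeq2 1.42.0, other scalings and filters, the libraries in the fit, the replicate block and leaving out each library.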

Additional observations from a re-analysis of the deposited data

How the results depend on the processing

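Every named gene that was called in the fit reported kept its direction under each alternative that gave it a value; of 2696 values of named genes under the alternatives, 10 lost and 7 gained their call. Of 179 counts and shares, 7 moved by more than the margin set for them. Among the genes that CCCP lowered, those not past the threshold against Sen (IR) numbered 313 in the fit reported, 487 without a filter on low counts and 108 when each library needed at least 10 counts, and the raised genes not past it went from 332 to 89 under that stricter filter. Under the same filter, which leaves 13249 genes and by its construction removes genes that are near 0 in 1 group, genes past a log2 fold change of 1 numbered 924 higher and 1118 lower, against 1457 and 1950. DESeq2 with an unadjusted p under 0.05 and an absolute log2 fold change over 0.5 called 3333 genes higher, against 5646. The share of mtDNA-encoded mRNAs differed by -10.0 points by TPM, against -1.98 points by counts. Of 577 list medians, 147 moved by more than the spread between libraries and 6 changed sign: nuclear lamina and HMGB genes to -0.003 with DESeq2 and with its size factors in edgeR and to a range of -0.011 to 0.067 when libraries were left out (negative without Sen (IR) replicate 3), cGAS-STING genes to 0.111 without a filter, IL-1 and IL-6 family receptors to a range of -0.022 to 0.104 (negative without Sen (IR) replicate 3), and osmotic genes to a range of -0.078 to 0.002 (positive without acetate replicate 3). The cause was not tested. Same-numbered libraries did not deviate together, with correlations from -0.082 to 0.035 over 9 pairs. These values cannot show whether same-numbered libraries were prepared together. With the replicate block 5652 genes were higher and 5515 lower than in Sen (IR), and 159 of the 160 genes named kept their call, CALD1 being the exception. Of 1154 list counts, 37 moved by over 1.5 times, most of them small counts. At the depths given, genes with only a few counts in a group have folds set by counting error.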
